A study of Mus musculus with 47 samples.

Results

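The genes *Abcb1a*, *Abcb1b*, *Abcb4*, *Abcb11*, *Abcc2*, *Abcc3*, *Abcc4*, *Abcg2*, *Abcg5* and *Abcg8* encode the ATP-binding cassette (ABC) transporters with which liver cells pump drugs, bile constituents and sterols out of the cytoplasm. They were taken from the array by name: a probe belonged to the set when it was a gene probe whose gene name in the scanner files was one of these 10 symbols, which gave 15 of 56605 gene probes. Of these, 13 probes covering all 10 genes passed the filter on dim probes, out of 32974 probes of 21873 genes that were tested. Each of the 13 was well above background on all 47 arrays and saturated on 0. A second *Abcb1a* probe was well above background on 0 of 47 arrays and a second *Abcb1b* probe on 3 of 47, and neither was tested.

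ABC transporters use ATP to move their substrates across a membrane, and in hepatocytes each one is sorted to a particular face of the cell. At the canalicular face, which drains into bile, *Abcb11* encodes the bile salt export pump, *Abcb4* the phosphatidylcholine floppase, *Abcc2* a pump for glucuronide and glutathione conjugates such as bilirubin glucuronides, *Abcg5* and *Abcg8* the partner subunits of the cholesterol and plant sterol exporter, and *Abcg2* and the near copies *Abcb1a* and *Abcb1b* (P-glycoprotein) pumps for a wide range of drugs. At the basolateral face, which faces the blood, *Abcc3* and *Abcc4* export conjugates and bile acids. Several of these genes are textbook targets of nuclear receptors, among them the pregnane X receptor (PXR, gene *Nr1i2*), which senses xenobiotics and certain bile acids, and LXR, which senses oxysterols and drives *Abcg5* and *Abcg8*.

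Liver mRNA came from C57BL/6J mice of both sexes, aged 6 months, which were *Pxr*+/+ or whole-body *Pxr*-/- littermates bred from *Pxr*+/- parents. Mice had drunk either plain tap water (control) or water with ampicillin and neomycin at 1 g/L each and vancomycin at 0.5 g/L for 2 weeks (ATB), and all were killed at Zeitgeber time 6 h. Sex, genotype and treatment gave 8 groups of 6 mice, except *Pxr*-/- control males, with 5. Each group was housed in 2 cages, from each of which 3 mice were meant for arrays, but which mice shared a cage is not given in the sources used here, so no fit could take cages into account. One array was hybridized per mouse, on 6 slides washed in 3 batches.

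The 75th percentile of the median signal lay between 214 and 342.5 on the 47 arrays, local background between 15 and 21, and between 31067 and 34458 gene probes were well above background. Correlations between arrays ran from 0.9767 to 0.99744, and no 2 arrays held identical values. All 10 hepatocyte markers, *Alb* and *Ttr* among them, were well above background on 47 of 47 arrays, as the liver label asks. *Nr1i2* itself was 0.41 lower on the log2 scale (SE 0.09, limma adjusted p = 0.00284) in *Pxr*-/- than in *Pxr*+/+ mice when averaged over sex and treatment, whereas within the 4 strata it differed by -0.28, -0.57, -0.29 and -0.50 and passed in none. Whether its probe lies in the deleted part of the gene is not given in the sources used here, so that it checks the genotype labels only in part.

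Values below are normalized log2 signals. A log2 signal orders mice for 1 probe, and levels of different probes were not compared, because probes differ in how brightly they bind. Differences are log2 differences from 1 limma model over all tested probes, with p-values adjusted (Benjamini-Hochberg) over all 32974 probes. A gene was called when at least 1 of its probes had an adjusted p of 0.05 or less and changed by more than 1.2-fold. The normalization left a shift of the whole array in some comparisons: the median of all probes was -0.20, -0.03, -0.12 and -0.18 in the 4 comparisons of males with females, between -0.13 and 0.01 in those of genotype and between -0.06 and 0.10 in those of ATB. In bulk liver, fewer cells of a type and less RNA per cell cannot be told apart.

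Since *Abcb1a* and *Abcb1b* are near copies, and *Abcc3* was read by more than 1 probe, the bases that the members' probes bind decide what each value is. The stretches below are bases 16 to 45 of the 60-base array probes behind the main results, shown to tell the near copies and the pair of *Abcc3* probes apart.
Abcb1a: cctgagttcagatccctaccacctaagtaa
Abcb1b: agcgctcatgagctgtgactatctgaggtg
Abcc3 (brighter): ctggtgctgtctgagtccactgatgaaata
Abcc3 (dimmer): caggatttcctgaaccaaaatgaacttgac
Abcc4: agattcgtcctttattggtagtcgcagttg
Abcg2: tattatcttcctcacaattgcctacctgaa
Abcg5: tgtggtgcttggacattgtgactgaactgg
Abcg8: cacgttcctcggttccctcttttcataatt
The whole *Abcb1a* and *Abcb1b* probes shared 17 of 60 positions, with a longest shared run of 7 bases anywhere in them. This compares the probes with each other, and whether either also binds the mRNA of the other gene was not tested. Both lie on chromosome 5 of mouse build mm9 on the plus strand, at chr5:8748075-8748134 and chr5:8865925-8865984, and the brightest *Abcb4* probe follows at chr5:8959108-8959167. The *Abcc3* probes lie at chr11:94204612-94204671 and chr11:94225685-94225744 on the minus strand, the *Abcc4* probe at chr14:118882104-118882163 on the minus strand and the *Abcg2* probe at chr6:58642312-58642371 on the plus strand. Their place in an exon or untranslated region was not analysed here.

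**Figure D1:**
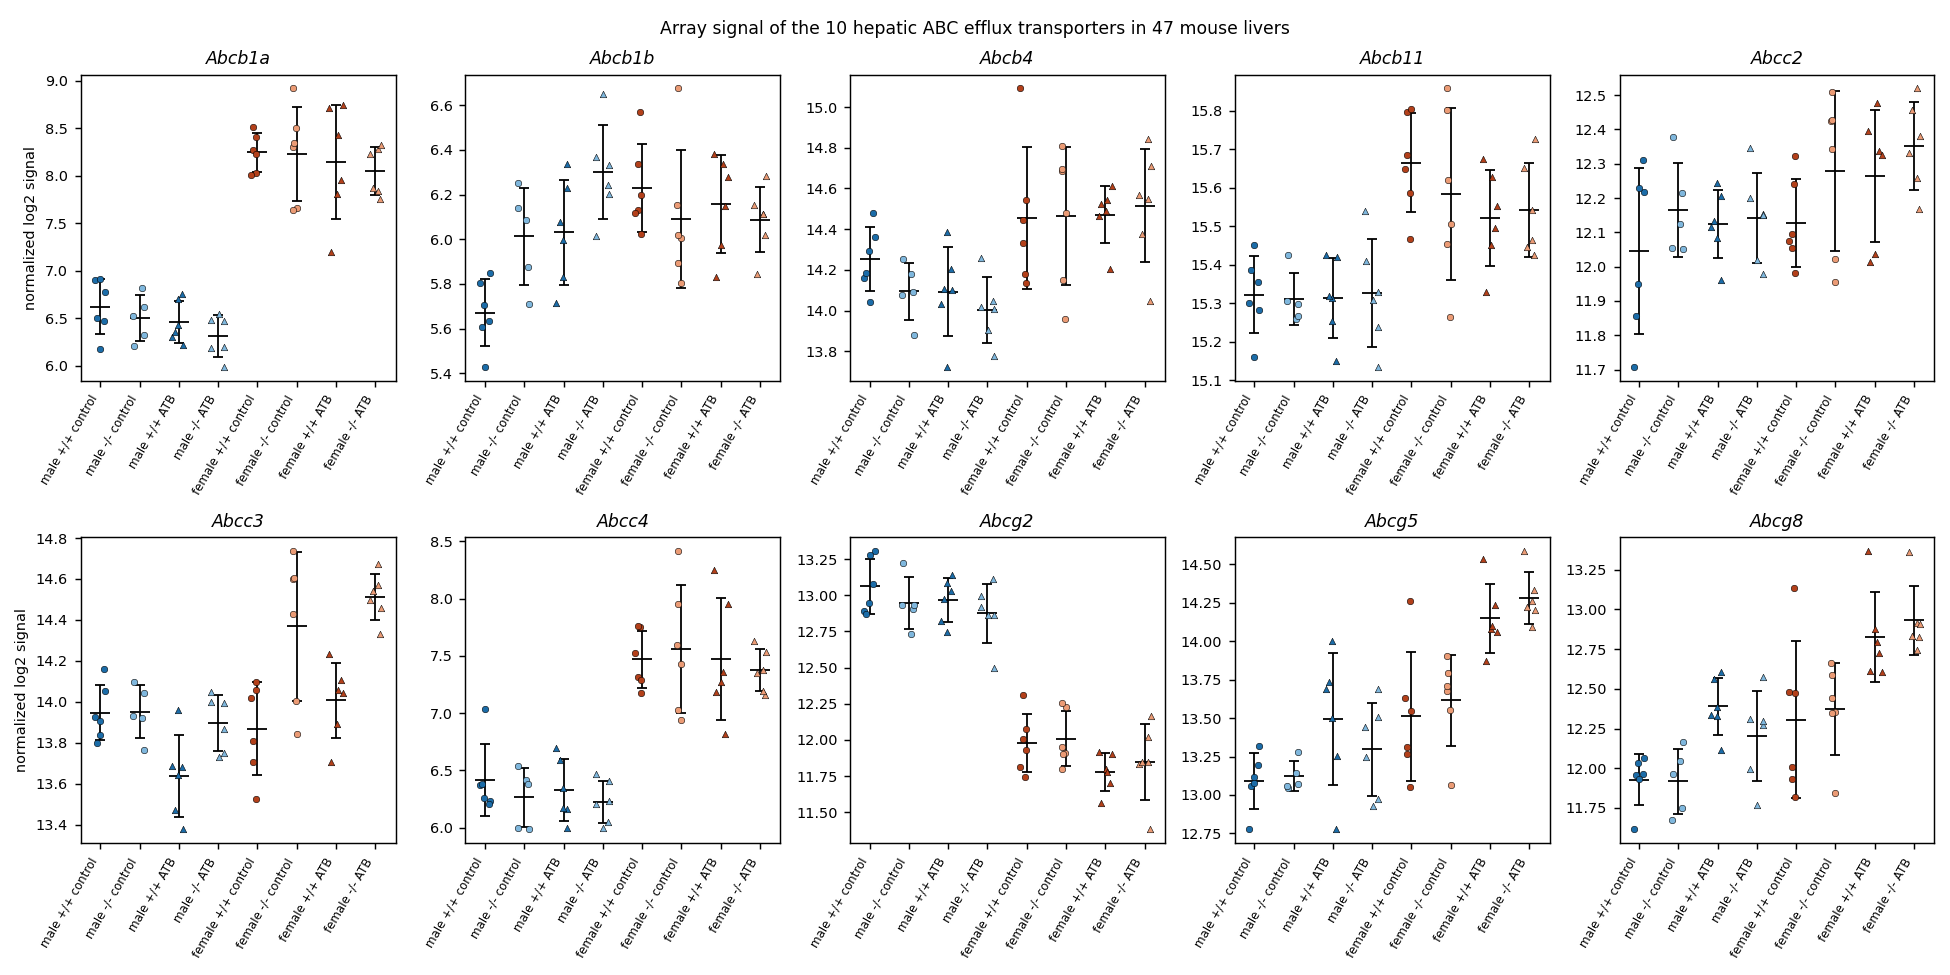
Normalized log2 signal (vertical axis) of the brightest probe of each of the 10 transporters in 47 livers, by sex, genotype and treatment. Points are mice (circles control, triangles ATB), and bars give the mean and SD. For *Abcb1a* all female values (7.20 to 8.92) lie above all male values (5.99 to 6.92), and for *Abcg2* all male values (12.50 to 13.30) lie above all female values (11.38 to 12.31).

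The largest differences among the 10 transporters were between the sexes. *Abcb1a* and *Abcc4* were higher in females and *Abcg2* in males, in both genotypes and with or without ATB. *Abcb1a* was 3.23-fold higher in females averaged over the 4 strata (log2 difference of males minus females -1.69, SE 0.10, limma adjusted p = 1.829e-18), *Abcc4* 2.24-fold higher in females (-1.16, SE 0.10, adjusted p = 4.276e-13) and *Abcg2* 2.08-fold higher in males (1.06, SE 0.06, adjusted p = 1.395e-19). Averages over strata are contrasts of the same fit that were added after the data had been seen.

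In *Pxr*+/+ control mice, 6 of the 10 members were called between the sexes, beside 36.6% of all genes. In *Pxr*+/+ mice on ATB 5 members were called, beside 14.4% of genes, in *Pxr*-/- controls 6, beside 18.7%, and in *Pxr*-/- mice on ATB 7, beside 30.2%. Of these 24 calls, 4 were higher in males, all of them *Abcg2*. Averaged over the strata, 7 members were called, beside 29.9% of genes (26.2% lower and 3.75% higher in males), *Abcg2* higher and the other 6 lower. The members' median sex difference was -0.36, -0.37, -0.39 and -0.56 in the 4 strata, beside medians over all genes of -0.20, -0.04, -0.13 and -0.17. The groups did not overlap for 5, 4, 3 and 6 members, beside 16.9%, 6.57%, 7.30% and 10.3% of all genes.

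*Abcb1a* encodes a form of P-glycoprotein, which keeps lipophilic drugs out of cells. In *Pxr*+/+ control males it ran from 6.18 over a median of 6.64 to 6.92, and in *Pxr*+/+ control females from 8.01 over 8.25 to 8.52. On ATB the *Pxr*+/+ males spanned 6.22 to 6.75 (median 6.39) and the females 7.20 to 8.74 (median 8.20). The sexes did not overlap in either treatment, and ATB females were the widest of these groups. The 5 *Pxr*-/- control males read 6.83, 6.62, 6.21, 6.53 and 6.33, and the *Pxr*-/- control females 7.64 to 8.92 (median 8.32). On ATB the *Pxr*-/- males lay between 5.99 and 6.55 (median 6.33) and the females between 7.75 and 8.32 (median 8.05). Every male was therefore below every female of its stratum. The sex difference was -1.62 (SE 0.20), -1.68 (0.20), -1.73 (0.21) and -1.74 (0.20) in *Pxr*+/+ control, *Pxr*+/+ ATB, *Pxr*-/- control and *Pxr*-/- ATB mice, with limma adjusted p between 4.047e-09 and 2.446e-08.

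*Abcb1b*, the near copy of *Abcb1a* on the same chromosome, had another pattern. It was lower in males in *Pxr*+/+ controls, where males read 5.43 to 5.85 (median 5.67) and females 6.02 to 6.57 (median 6.16), a difference of -0.56 (SE 0.13, limma adjusted p = 0.00083). This call was lost under normexp correction. In the other strata its sex difference was -0.13, -0.08 and 0.21, and none was called. Averaged over the strata it was -0.14 (SE 0.06, adjusted p = 0.0624), against -1.69 for *Abcb1a*. Its sign in *Pxr*-/- mice on ATB rests on a small value, and 3 other normalizations gave 0.41, 0.57 and 0.29 there and called it higher in males.

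The windows upstream of the pair are shown because near copies with unlike patterns invite a look at the DNA before each start. They are the 250 bases before the transcript's first base in RefSeq on build GRCm38.p6, plus strand, chr5:8566841-8567090 for *Abcb1a* and chr5:8797897-8798146 for *Abcb1b*, with CCAAT in capitals on either strand.
Abcb1a: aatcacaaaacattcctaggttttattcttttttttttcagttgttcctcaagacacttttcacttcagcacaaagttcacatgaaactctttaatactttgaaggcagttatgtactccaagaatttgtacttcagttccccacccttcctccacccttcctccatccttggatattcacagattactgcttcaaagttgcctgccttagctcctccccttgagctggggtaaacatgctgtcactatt
Abcb1b: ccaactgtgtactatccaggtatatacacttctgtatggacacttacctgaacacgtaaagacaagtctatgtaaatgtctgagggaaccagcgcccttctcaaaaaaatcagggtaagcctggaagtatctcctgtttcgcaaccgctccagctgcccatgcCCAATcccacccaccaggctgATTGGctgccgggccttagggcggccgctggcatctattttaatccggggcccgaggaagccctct
The *Abcb1a* window had 40.4% GC and no CCAAT, and the *Abcb1b* window 52.8% GC and 2 matches, 87 and 66 bases before the start. CCAAT, read after the windows had been seen, occurred in 33.8% of 32851 such windows of all RefSeq mouse promoters in the table used. A match describes the letters and does not show a bound site.

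*Abcc4* encodes a basolateral pump for conjugates and bile acids. Its values ran from 6.20 over 6.32 to 7.03 in *Pxr*+/+ control males and from 7.17 over 7.42 to 7.76 in the females, and on ATB from 6.00 over 6.26 to 6.69 and from 6.81 over 7.32 to 8.25. In *Pxr*-/- controls the males read 6.42, 6.38, 6.54, 6.00 and 5.98 and the females spanned 6.94 to 8.41 (median 7.51), and on ATB the males spanned 6.00 to 6.47 (median 6.22) and the females 7.16 to 7.63 (median 7.36). In each stratum all males lay below all females. The differences were -1.06 (SE 0.20), -1.15 (0.20), -1.30 (0.21) and -1.15 (0.20), with limma adjusted p between 1.052e-05 and 7.898e-05.

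*Abcg2*, a canalicular pump for drugs, porphyrins and conjugates, ran the other way. *Pxr*+/+ control males lay between 12.87 and 13.30 (median 13.01) and the females between 11.74 and 12.31 (median 11.97), and on ATB males lay between 12.75 and 13.14 (median 13.004) and females between 11.57 and 11.92 (median 11.79). The *Pxr*-/- control males read 12.73, 12.91, 13.23, 12.93 and 12.93 and the females 11.80 to 12.26 (median 11.93), and on ATB the males spanned 12.50 to 13.11 (median 12.89) and the females 11.38 to 12.16 (median 11.85). Every male was above every female. The differences were 1.08 (SE 0.11), 1.19 (0.11), 0.94 (0.12) and 1.03 (0.11), with limma adjusted p between 5.51e-11 and 1.048e-07.

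The sex calls of *Abcb1a*, *Abcc4* and *Abcg2* held in all 4 strata under the main processing and every alternative tried, with ranges of -1.82 to -1.11, -1.39 to -0.59 and 0.92 to 1.38. Within wash batches 1, 2 and 3 (23, 16 and 8 mice) the averaged sex difference was -1.67, -1.57 and -1.94 for *Abcb1a*, -1.17, -1.03 and -1.36 for *Abcc4* and 1.102, 1.009 and 0.998 for *Abcg2*. For these 3 genes no comparison of genotype or of ATB within a sex was called, which does not show that the 4 levels of a sex were alike.

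The sterol exporter subunits *Abcg5* and *Abcg8* were also higher in females, by 1.56-fold (averaged difference -0.64, SE 0.08, limma adjusted p = 2.742e-08) and 1.41-fold (-0.50, SE 0.08, adjusted p = 2.231e-06). By stratum, *Abcg5* differed by -0.42, -0.66, -0.50 and -0.99 and was called in each, and *Abcg8* by -0.38, -0.44, -0.45 and -0.73 and was called in *Pxr*-/- mice on ATB. The averaged calls of both held under every alternative tried. The 2 control-stratum calls of *Abcg5* were close to the threshold (adjusted p = 0.0444 and 0.0459), and were lost under quantile normalization, under the scanner's processed signal and under normexp correction.

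**Figure D2:**
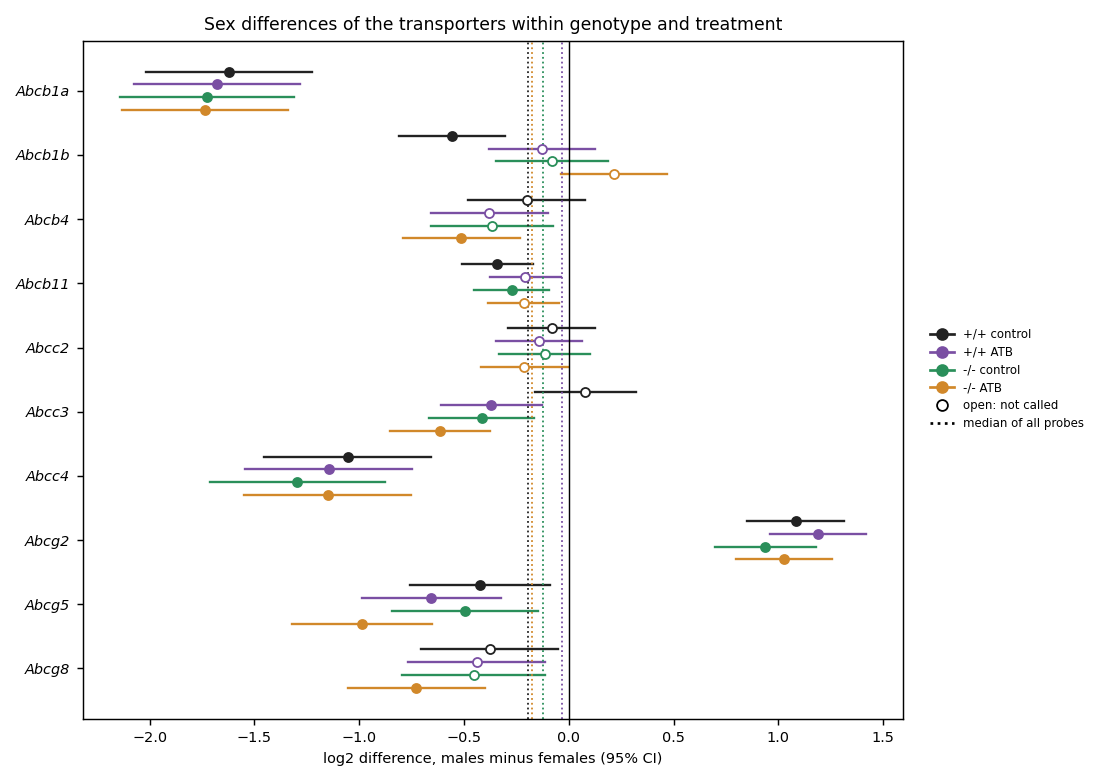
Log2 difference of males minus females (horizontal axis, points, with 95% confidence intervals as bars) for the brightest probe of each transporter in the 4 strata of genotype and treatment. Open points were not called, and dotted lines give the median of all probes in the stratum of that colour. *Abcb1a* (-1.62 to -1.74), *Abcc4* (-1.06 to -1.30) and *Abcg2* (0.94 to 1.19) stand apart from 0 in every stratum.

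For the canalicular lipid and bile salt pumps, sex differences were smaller. *Abcb4* was 1.29-fold higher in females on average (-0.36, SE 0.07, limma adjusted p = 3.034e-05). Its other probes gave -0.30 and -0.37 and were also called, and by stratum its brightest probe gave -0.20, -0.38, -0.37 and -0.51, called in the last. *Abcb11* differed by -0.34, -0.21, -0.27 and -0.22, was called in both control strata and averaged -0.26 (SE 0.04, adjusted p = 2.417e-06), a change below the 1.2-fold threshold. Both of its control-stratum calls were lost under normexp correction. *Abcc2* was called in no stratum, and averaged -0.14 (SE 0.05, adjusted p = 0.0223), also below that threshold. Set against the median of all probes the averages of *Abcb4*, *Abcb11* and *Abcc2* shrink by 0.13, and in single strata their signs turned under at least 1 other scaling. Under quantile normalization, the processed signal and normexp correction the average of the brightest *Abcb4* probe was -0.23, -0.16 and -0.23 and no probe of the gene was called.

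*Abcc3*, the basolateral pump for glucuronides, was lower in males in 3 strata and not in *Pxr*+/+ controls (0.08, -0.37, -0.42 and -0.61, with limma adjusted p = 0.617, 0.0335, 0.0186 and 0.000161). Its dimmer probe gave 0.08, -0.28, -0.37 and -0.63, called in the last. Under quantile normalization, the processed signal and normexp correction the *Pxr*+/+ control difference became 0.28, 0.34 and 0.27 and was called higher in males, so that its direction there depends on the scaling. Averaged over the strata it was -0.33 (SE 0.06, adjusted p = 1.379e-05). Under the same 3 alternatives and with the deposited values the *Abcc3* average was -0.19, -0.13, -0.19 and -0.24, below the 1.2-fold threshold, and neither probe was called.

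Leaving out 1 mouse at a time changed some of the calls near the threshold. The *Abcg5* call in *Pxr*+/+ controls was lost in 8 of 12 such fits, falling to -0.27 without control female replicate 1, and otherwise without males 1, 3, 4, 5 and 6 and females 4 and 6. In *Pxr*-/- controls it was lost in 9 of 11 (all but females 1 and 5, range -0.54 to -0.43 over the fits that lost it). The *Abcb11* call in *Pxr*-/- controls was lost in 7 of 11 (without males 2, 3, 5 and 6 or females 3, 4 and 6, -0.27 to -0.22). The *Abcc3* call was lost in 7 of 12 fits in *Pxr*+/+ mice on ATB (without males 2, 4 and 6 or females 1, 2, 4 and 6, -0.37 to -0.32) and in 4 of 11 in *Pxr*-/- controls (without females 3, 4 and 6 or male 6, -0.37 to -0.34).

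Other ABC transporters moved with sex as well. Of 31 tested, 1 was called higher and 13 lower in males on average (median -0.19). *Abcd2*, a peroxisomal transporter of fatty acids, gave -2.17 in *Pxr*+/+ controls (SE 0.22, limma adjusted p = 1.633e-10), and *Abca3*, a lipid transporter, -1.13 on average. Among 12 uptake and bile partner genes, 2 were higher and 6 lower. The organic anion uptake carrier *Slco1a1* was 4.92 higher in males on average (limma adjusted p = 7.249e-21), and *Slco1a4* gave -1.39 in *Pxr*+/+ controls. Among 15 regulators 0 were higher and 8 lower (median -0.26), with *Nr1i3*, which encodes the receptor CAR, at -0.53 in *Pxr*+/+ controls (adjusted p = 0.0028). Of 15 PXR and CAR targets 2 were higher and 7 lower (median -0.44), *Cyp2b9* with -6.05 in *Pxr*+/+ controls. Of 12 LXR and sterol targets the counts were 1 and 1, and of 9 NRF2 targets 1 and 2, with *Nqo1* at -1.26 on average.

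Markers of other liver cells moved in the same comparison. On average 11 of 12 macrophage markers were lower in males (median -0.62), with a dimmer probe of *Csf1r*, 1 of the 11, higher (0.31), and their summed level on the log2 scale ran from 14.53 to 14.99 in *Pxr*+/+ control males and from 15.48 to 16.49 in the females. Of 9 cholangiocyte markers 5 were lower and 1 higher, of 10 endothelial markers 7 were lower, of 10 stellate and fibroblast markers 10, and of 9 T, NK and B cell markers 7 were lower and 1, *Cd4*, higher (0.27). Of 10 hepatocyte markers 1 was lower (median -0.06). No macrophage marker was near background, and what part these cells have in the transporters' sex differences was not tested.

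The mRNAs of the sterol exporter subunits were higher on ATB on average, in a contrast added after the data had been seen. Averaged over sex and genotype, *Abcg5* rose 1.39-fold (log2 difference 0.47, SE 0.08, 95% confidence interval 0.30 to 0.64, limma adjusted p = 0.000381) and *Abcg8* 1.37-fold (0.46, SE 0.08, interval 0.29 to 0.62, adjusted p = 0.000394). They were the 2 members called in this average, beside 2.66% of all genes (1.71% higher and 0.956% lower). Both were called under every alternative tried, with ranges of 0.41 to 0.47 and 0.41 to 0.46, and within wash batches 1, 2 and 3 the averages were 0.53, 0.48 and 0.27 for *Abcg5* and 0.52, 0.48 and 0.21 for *Abcg8*.

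Within single strata 0 of 10 members were called for ATB, beside 1.34% of genes in *Pxr*+/+ males, 0.11% in *Pxr*-/- males, 0.0183% in *Pxr*+/+ females and 0.0411% in *Pxr*-/- females. At an unadjusted p under 0.05 there were 4, 1, 2 and 2 members, beside 4084, 1573, 2337 and 2554 of 21873 genes. The members' median difference was -0.05, -0.03, 0.01 and 0.02, beside 0.10, 0.02, -0.06 and 0.05 over all genes. The groups did not overlap for 1, 0, 0 and 2 members, beside 3.93%, 0.983%, 0.357% and 0.741% of genes.

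*Abcg5* in *Pxr*+/+ males ran from 12.78 over 13.10 to 13.32 without and from 12.78 over 13.59 to 14.001 with ATB, a difference of 0.40 (SE 0.17, limma adjusted p = 0.193). In *Pxr*-/- males the controls read 13.14, 13.07, 13.05, 13.06 and 13.28 and the ATB mice spanned 12.93 to 13.69 (median 13.34), a difference of 0.18 (adjusted p = 0.897). Male groups thus overlapped in both genotypes. In *Pxr*+/+ females it went from 13.05 to 14.26 (median 13.43) up to 13.87 to 14.54 (median 14.09), a difference of 0.64 (SE 0.17, adjusted p = 0.191). In *Pxr*-/- females the controls spanned 13.06 to 13.90 (median 13.69) and the ATB mice 14.09 to 14.59 (median 14.24), a difference of 0.67 (SE 0.17, adjusted p = 0.0751). Here all ATB mice lay above all controls.

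*Abcg8* differed by 0.46 (adjusted p = 0.128), 0.28 (0.796), 0.52 (0.262) and 0.56 (0.136) in *Pxr*+/+ males, *Pxr*-/- males, *Pxr*+/+ females and *Pxr*-/- females, all limma adjusted p. In *Pxr*+/+ males it ran from 11.61 over 11.96 to 12.06 without and from 12.12 over 12.36 to 12.60 with ATB, with no overlap. In *Pxr*-/- females it ran from 11.84 over 12.40 to 12.66 and from 12.74 over 12.87 to 13.36, again with no overlap. *Pxr*-/- males overlapped (controls 12.04, 11.75, 11.97, 11.67 and 12.16 against 11.77 to 12.57, median 12.29), as did *Pxr*+/+ females (11.82 to 13.13, median 12.24, against 12.60 to 13.37, median 12.76).

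In *Pxr*+/+ control females, replicate 1 held the highest value of both genes (14.26 and 13.13). Without it, the ATB difference in *Pxr*+/+ females was 0.79 for *Abcg5* (limma adjusted p = 0.00951) and 0.69 for *Abcg8* (adjusted p = 0.0182), both called, and *Abcg5* was also called in *Pxr*-/- females (0.67, adjusted p = 0.0475). Without any other single mouse, 0 members were called for ATB. When a fit held the compared groups alone, *Abcg8* was called in *Pxr*+/+ males (0.46, adjusted p = 0.0301).

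At the first listed start of each, the genes of this pair lie head to head, and the whole stretch between those first bases in RefSeq is short enough to show. RefSeq also lists a start of *Abcg8* at base 84676302, to the left of the *Abcg5* start, for which this does not hold. It is chr17:84683012-84683120 of GRCm38.p6, 109 bases with 45.9% GC on the plus strand, with *Abcg5* reading away to the left from base 84683011 and *Abcg8* to the right from base 84683121. Capitals mark AGATAA, a motif of the GATA family of factors, on either strand.
Abcg5 to Abcg8: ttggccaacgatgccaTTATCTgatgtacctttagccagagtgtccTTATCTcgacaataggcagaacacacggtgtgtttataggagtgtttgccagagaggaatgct
The motif, chosen after the stretch had been read, occurred in 9.99% of the 250-base windows of all promoters. AGGTCA, the unit from which nuclear receptor sites are built, was in 14% of windows and in neither member of the pair. Among the other members it was found 56 bases before the start of *Abcb11*, 49 before that of *Abcc2* and 212, 121 and 197 bases before starts of *Abcg2*. A direct repeat of that unit spaced by 4 bases (0.0152% of windows), an everted repeat spaced by 6 (0%) and TTCNNNGAA, a STAT palindrome (7.02%), were in none of the 13 windows, which covered 9 of the 10 genes on both strands.

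Mouse by mouse, *Abcg5* and *Abcg8* moved together after group and wash batch means had been taken out (Pearson's r = 0.71, Spearman's rho = 0.67, n = 47, permutation p = 1e-05 and 4e-05, adjusted over 3 pairs 3e-05 and 0.00012, where 1e-05 is the smallest p that 100000 permutations within groups can give). Without the 2 mice farthest from the median of *Abcg5*, r was 0.78. Within wash batches 1, 2 and 3 it was 0.90, 0.27 and 0.81, in males 0.37 and in females 0.93. One *Pxr*+/+ male on ATB read 12.78 for *Abcg5*, the lowest of its group, and 12.60 for *Abcg8*, the highest of its group.

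**Figure D3:**
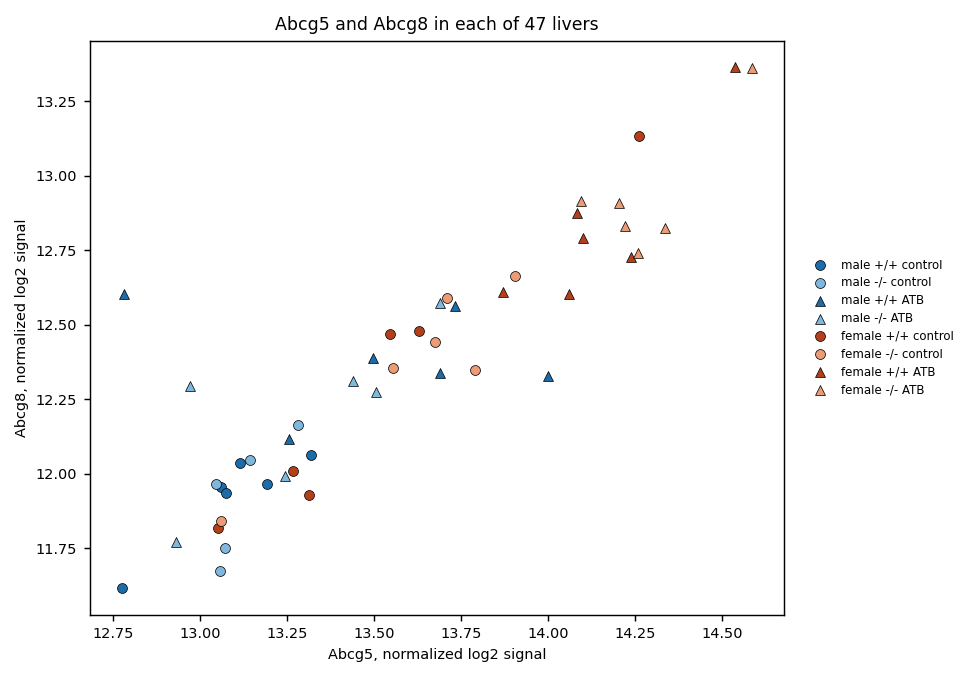
*Abcg8* against *Abcg5*, both as normalized log2 signal, in each of 47 livers (circles control, triangles ATB, blue males, red females, pale *Pxr*-/-). The *Pxr*-/- ATB females (14.09 to 14.59 for *Abcg5*) lie to the upper right of the *Pxr*-/- control females (13.06 to 13.90).

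*Abcb1a* and *Abcb1b* correlated less closely (r = 0.54, rho = 0.44, n = 47, permutation p = 0.00064 and 0.00463, adjusted 0.00096 and 0.00695). The value was 0.40 without the 2 farthest mice, 0.68, 0.34 and 0.40 within wash batches, 0.10 in males and 0.78 in females. With quantile normalization, the processed signal, normexp and the deposited values r was 0.41, 0.37, 0.44 and 0.41. With spike-in scaling it was 0.59, so that its size depends on the scaling. *Abcc3* and *Abcc4* gave r = 0.40 and rho = 0.35 (permutation p = 0.04 and 0.0346), with r = 0.31 and rho = 0.31 without the 2 farthest mice (permutation p = 0.0538 and 0.0492). Under quantile normalization r was 0.07 and rho 0.01 (permutation p = 0.698 and 0.953), so that this relation depends on the scaling. Differences of r between the sexes or batches were not tested.

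No other member was called for ATB on average. *Abcb1a* gave -0.16 (limma adjusted p = 0.386), *Abcb1b* 0.14 (0.185), *Abcg2* -0.13 (0.18), and *Abcc4*, *Abcc2*, *Abcb4*, *Abcb11* and *Abcc3* between -0.08 and 0.07. In *Pxr*+/+ males *Abcc3* ran from 13.80 over 13.92 to 14.16 in controls and from 13.38 over 13.66 to 13.96 on ATB, a difference of -0.31 (SE 0.12, adjusted p = 0.162). Under quantile normalization, the processed signal, normexp correction and the deposited values it was -0.44, -0.42, -0.45 and -0.39 and was called. *Abcb1b* in the same males gave 0.36 (SE 0.13, adjusted p = 0.128).

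Whether ATB acted differently between sexes or genotypes was tested directly. In each of the 4 differences of ATB effects 0 members were called, beside 0.0183%, 0%, 0.0457% and 0.00457% of genes. An unadjusted p under 0.05 was found for 0, 0, 2 and 1 members, beside 1098, 2065, 2832 and 1067 of 21873 genes. Averaged, the effect in males minus that in females was -0.36 for *Abcg5* (SE 0.17, limma adjusted p = 0.727), 0.36 for *Abcb1b* (0.676) and -0.32 for *Abcc3* (0.681). Here 0 members were called, beside 0.0366% of genes, and 3 had an unadjusted p under 0.05, beside 1587 of 21873 genes. The effect in *Pxr*+/+ minus that in *Pxr*-/- was 0.10 for *Abcg5* and 0.07 for *Abcg8*. Of the members 0 were called, beside 0% of genes, and 0 had an unadjusted p under 0.05, beside 1040 of 21873 genes. The data therefore show no difference of the ATB effect between sexes or genotypes for these genes, and with these errors do not show that the effects were alike.

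Of the other lists, 1 of 12 LXR and sterol targets was called for ATB on average, *Idi1* of the sterol synthesis pathway (0.51, SE 0.13, limma adjusted p = 0.0126), with a median of 0.06 over the list. In *Pxr*+/+ males 2 of them were called, *Idi1* (1.31, adjusted p = 0.00423) and *Sqle* (1.04, adjusted p = 0.0475). Of 15 PXR and CAR targets 1 rose and 4 fell on average (median -0.16), with the xenobiotic-metabolizing *Cyp2b10* at -3.11 and *Cyp3a11* at -2.04 in *Pxr*+/+ males. Other ABC transporters gave 1 higher and 0 lower of 31, uptake and bile partners 1 and 1 of 12, regulators 2 and 0 of 15, and NRF2 targets 0 and 2 of 9 (*Ephx1*, -0.65, and *Gsta4*, -0.31). The 2 regulators were *Srebf2* and *Nr1i3* (0.31 each), called by a dimmer probe alone. None of the 6 cell type marker lists held a gene called for ATB on average.

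**Figure D4:**
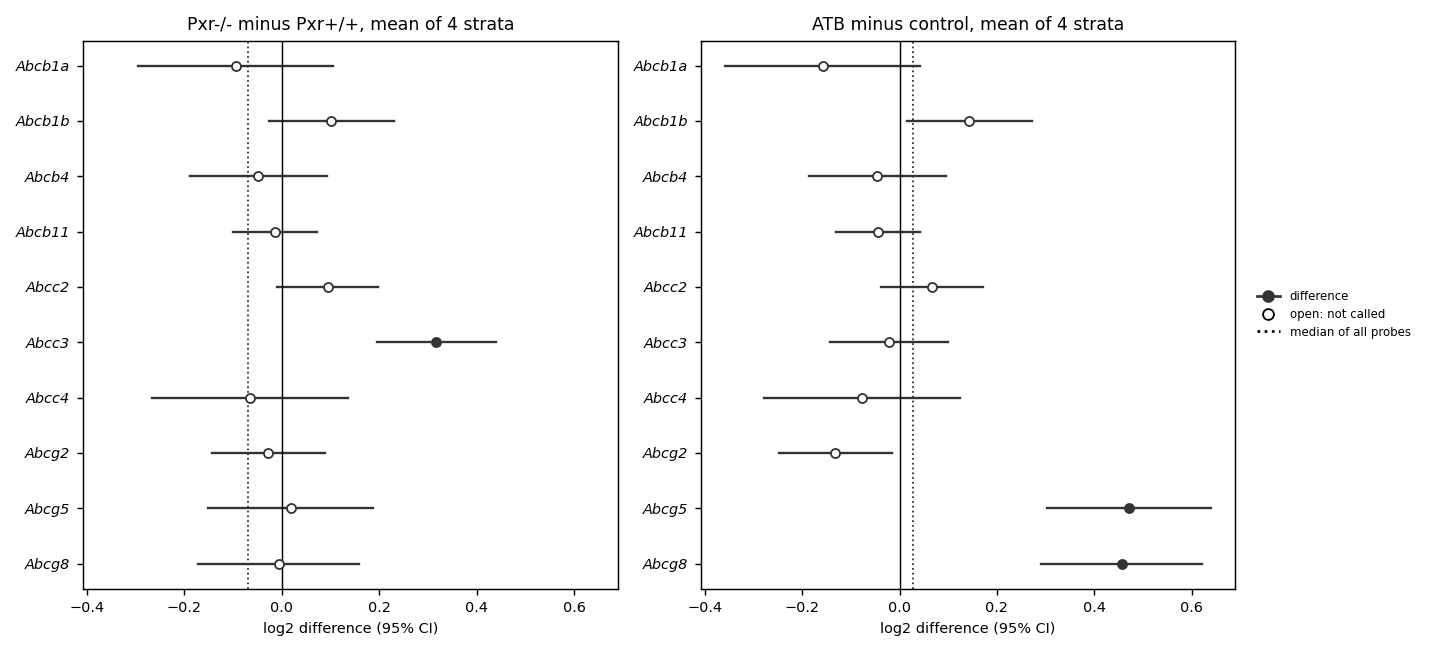
Log2 difference of *Pxr*-/- minus *Pxr*+/+ (left) and of ATB minus control (right), each averaged over the 4 strata of the other factors, for the brightest probe of each transporter (points, with 95% confidence intervals as bars and open points not called). The dotted line is the median of all probes. *Abcc3* (0.32) was called on the left, and *Abcg5* (0.47) and *Abcg8* (0.46) on the right.

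For PXR loss 1 of the 10 transporters was called on average, in a contrast added after the data had been seen. *Abcc3* was 1.25-fold higher in *Pxr*-/- mice averaged over sex and treatment (log2 difference 0.32, SE 0.06, 95% confidence interval 0.20 to 0.44, limma adjusted p = 0.000658), and its dimmer probe gave 0.39 (SE 0.07, adjusted p = 0.000221). It was the 1 member called in this average, beside 4.46% of genes (0.796% higher and 3.66% lower), and was called under every alternative tried (0.32 to 0.41). Within wash batches 1, 2 and 3 the averages were 0.27, 0.38 and 0.34, and 0.34, 0.50 and 0.32 for the dimmer probe.

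By stratum, 0 members were called in control males, beside 0.192% of genes, 0 in ATB males, beside 1.23%, 1 (*Abcc3*) in control females, beside 4.09%, and 0 in ATB females, beside 0.229%. At an unadjusted p under 0.05 there were 1, 2, 1 and 1 members, beside 1136, 5018, 4684 and 1141 of 21873 genes. The members' median difference was -0.01, -0.09, 0.05 and 0.06, beside -0.04, -0.13, -0.12 and 0.00 over all genes. The groups did not overlap for 0, 0, 0 and 1 members, beside 0.837%, 3.39%, 1.77% and 0.453% of genes.

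The brighter *Abcc3* probe in control females ran from 13.53 over 13.91 to 14.09 in *Pxr*+/+ and from 13.84 over 14.51 to 14.74 in *Pxr*-/- mice, a difference of 0.50 (SE 0.12, limma adjusted p = 0.0169). On ATB the females ran from 13.71 over 14.05 to 14.23 and from 14.33 over 14.52 to 14.67, a difference of 0.51 (SE 0.12, adjusted p = 0.0634). The female groups overlapped in controls and did not overlap on ATB. In control males *Pxr*+/+ mice ran from 13.80 over 13.92 to 14.16 and the *Pxr*-/- mice read 13.92, 14.04, 14.10, 13.93 and 13.77, a difference of 0.005. On ATB males ran from 13.38 over 13.66 to 13.96 and from 13.73 over 13.93 to 14.05, a difference of 0.26 (SE 0.12, adjusted p = 0.189). Male groups overlapped in both treatments.

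The dimmer *Abcc3* probe, more than 20 kb away on the same strand, gave a like series. In control females it ran from 7.91 over 8.37 to 8.70 in *Pxr*+/+ and from 8.64 over 8.95 to 9.36 in *Pxr*-/- mice (0.62, SE 0.14, limma adjusted p = 0.0105), and on ATB from 8.24 over 8.60 to 8.84 and from 8.97 over 9.16 to 9.27 (0.57, SE 0.14, adjusted p = 0.0788), with no overlap on ATB. In males it gave 0.17 in controls and 0.22 on ATB, with overlap in both.

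**Figure D5:**
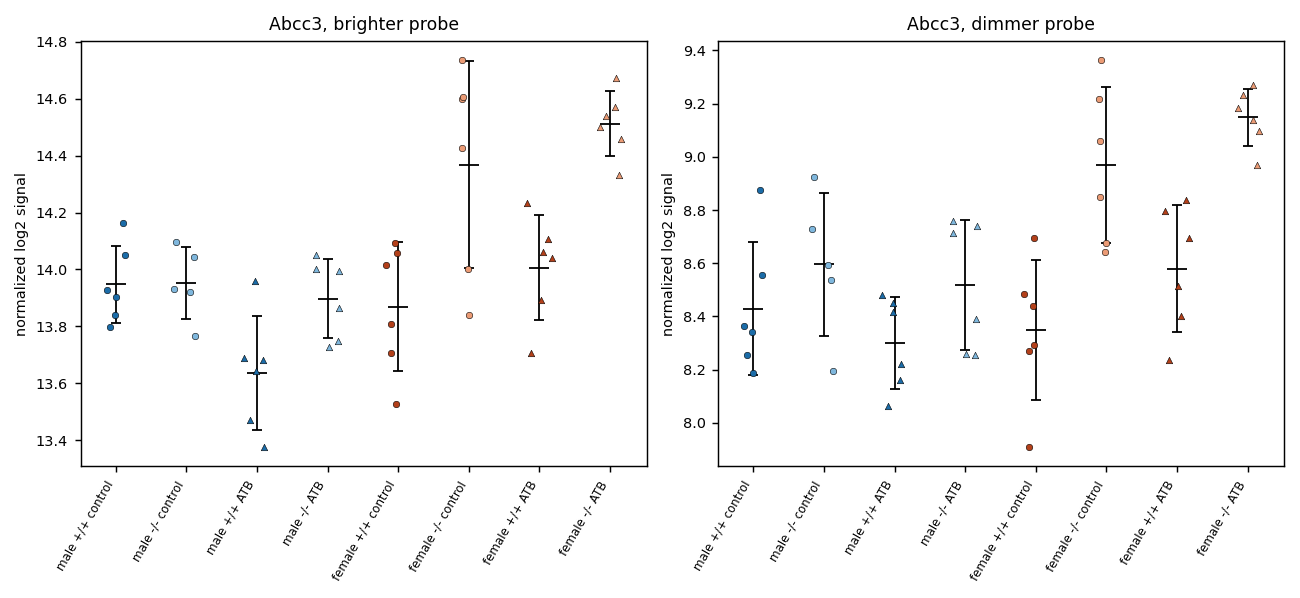
Normalized log2 signal (vertical axis) of the brighter and the dimmer *Abcc3* probe in 47 livers by sex, genotype and treatment (circles control, triangles ATB, bars mean and SD). In ATB females both probes lie higher in every *Pxr*-/- mouse (14.33 to 14.67 and 8.97 to 9.27) than in every *Pxr*+/+ mouse (13.71 to 14.23 and 8.24 to 8.84).

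The call of the brighter probe in control females was lost without *Pxr*-/- replicate 2 (0.49) or *Pxr*+/+ replicate 3 (0.43), with limma adjusted p of up to 0.0523, and when the fit held the 2 compared groups alone (adjusted p = 0.187). The dimmer probe kept the call in each of the 12 fits that left out a mouse. Within wash batches 1, 2 and 3 the control females differed by 0.51, 0.46 and 0.55, and by 0.65, 0.55 and 0.67 with the dimmer probe. In ATB females the brighter probe was called under quantile normalization (0.51, adjusted p = 0.0105), and in ATB males too (0.40, adjusted p = 0.0438).

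The genotype effect in males was also set against that in females directly. Their difference was -0.37 for *Abcc3* averaged over treatment (SE 0.12, unadjusted p = 0.00374, limma adjusted p = 0.959), and 0 members were called, beside 0.0914% of genes. In the 2 treatments taken singly 0 members were called as well, beside 0.0229% and 0.0549% of genes. At an unadjusted p under 0.05 there were 2 members in the average, 2 in controls and 0 on ATB, beside 772, 979 and 1929 of 21873 genes. The female bias of the *Abcc3* effect was therefore not shown over all probes.

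The other 9 members did not pass in any genotype comparison, which does not show that their mRNA was unchanged. *Abcb1b* came nearest in males, with 0.34 in controls (SE 0.13, limma adjusted p = 0.91) and 0.27 on ATB (SE 0.13, adjusted p = 0.194). In females *Abcb1b* gave -0.14 and -0.07, and its effect in males minus that in females was 0.41 averaged over treatment (SE 0.13, unadjusted p = 0.00249, limma adjusted p = 0.87). The averages of the other 8 ran from -0.09 for *Abcb1a* to 0.09 for *Abcc2*. For *Abcc2*, often named as a PXR target, the 95% confidence interval of the average was -0.01 to 0.20.

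Genes of the other lists moved with PXR loss in the same fit. The lists were chosen with earlier results of these data known, so that this is a description and no independent check of the fit. Of 15 PXR and CAR targets 7 were higher and 1 lower in *Pxr*-/- mice on average (median 0.26), with *Cyp2c55* 2.80 higher (SE 0.13, limma adjusted p = 1.886e-20), *Cyp3a11* 0.97 and the carboxylesterase *Ces2a* 0.90 higher. By stratum *Cyp3a11* was called in ATB males alone (2.40). On ATB its genotype effect in males minus that in females was 1.89 (limma adjusted p = 1.565e-05). Among 12 uptake and bile partners 1 was lower, the organic anion carrier *Slco1a4* (-1.42, adjusted p = 8.636e-14). By stratum it was called in males alone, with -2.92 in controls and -2.21 on ATB. Its genotype effect in males minus that in females averaged -2.29 (limma adjusted p = 1.369e-09). Of 31 other ABC transporters 0 were higher and 2 lower, the cholesterol transporter *Abcg1* (-0.35) and *Abca8b* (-0.30, called by a dimmer probe alone). Of 15 regulators 0 were higher and 2 lower, *Nr1i2* itself and *Nr1i3* (-0.32 with its brightest and -0.35 with a dimmer probe), and of 12 LXR and sterol targets 0 and 1, *Cyp7a1*, the rate-limiting enzyme of bile acid synthesis (-1.03, SE 0.27, adjusted p = 0.0118). None of 9 NRF2 targets was called.

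In control females, where *Abcc3* was called, markers of other cells also differed between the genotypes. Of 12 macrophage markers 8 were lower in *Pxr*-/- mice (median -0.95), with *Vsig4* at -1.1001 and *Clec4f* at -0.76, and their summed log2 level ran from 15.48 to 16.49 in *Pxr*+/+ and from 14.58 to 15.21 in *Pxr*-/- mice. The endothelial *Stab2* and *Clec4g* fell by 0.61 and by 0.59. On ATB the macrophage sums were 14.28 to 16.02 and 14.36 to 15.34 in females, where the *Abcc3* difference was 0.51. What part cell composition has in the *Abcc3* difference was not tested. On average over the strata 8 of 12 macrophage, 5 of 10 endothelial, 2 of 10 hepatocyte and 1 each of 9 cholangiocyte, 10 stellate and fibroblast, and 9 T, NK and B cell markers were lower in *Pxr*-/- mice, and 0 were higher.

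Across the 47 mice, the genes whose brightest probes followed a member most closely were named for each called member, as a description in which mice share their group. For *Abcb1a* these were *Vldlr*, *Hao2* and *Slc22a27* (Pearson's r of 0.96, 0.96 and 0.95), and for *Abcg2* *Gstp2* and *Nat8f5* (0.96 and 0.95) and an unnamed probe (0.95). For *Abcc4* they were *Cdkn1c*, *Nbdy* and *Atpif1* (0.93, 0.92 and 0.92). *Abcg5* and *Abcg8* each had the other as the nearest of all genes (0.89), followed by *Gm30948* (0.84) and *Zkscan17* (0.86). *Abcc3* was followed less closely, by an unnamed probe (0.80) and by *Slc16a7* and *Akr1b7* (0.75 each), *Abcb11* by *Stk40* (0.88), *Abcb4* by *Acot8* (0.88) and *Abcb1b* by *Fam57a* at 0.67.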

How the data were processed

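Liver RNA was measured on 1-colour Agilent mouse arrays. The deposited scanner files hold each spot's intensity on a linear scale, with no scaling between arrays, read with Agilent Feature Extraction 10.10.1.1 per the labels. The authors' table of log2 values, filtered, corrected for wash batch and normalized by CrossNorm, served as an alternative. Here log2 of the median signal was taken, 422 non-uniform gene spot values were left out and spots of a probe averaged, with 413 probe values without a usable spot set to the group mean. A probe was tested when well above background on 5 or more arrays of a group. Wash batch was removed with group means kept, and CrossNorm (stacks of 1 array per group, quantile normalized) was averaged over 300 draws with seed 1. Gene symbols are the files', with 1535 probes renamed through RefSeq. The highest-mean probe stands for a gene.

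Groups and wash batch entered 1 limma model (limma 3.58.1, R 4.3.3, the data.table package at version 1.17.8). The 12 pairwise comparisons, 6 differences between effects and 6 averaged effects were its contrasts, and the averaged effects and the values within wash batches were chosen after seeing the data. P-values of the model weigh a difference against the spread between mice within groups. For each probe that spread is pooled over all groups and drawn towards the spread of the other probes. Correlations used 100000 permutations within groups. The script was tested on simulated data. Sequences were read with Python 3.11.15 from RefSeq promoters (GRCm38.p6) and the array's probes (mm9), and matplotlib 3.10.9 drew the figures. Named genes are the members, *Nr1i2*, per list and family of comparisons the 3 called genes with the smallest adjusted p, and 3 genes most correlated with each called member. Members and lists were chosen with earlier results of these data known. Alternatives were quantile normalization, scaling on 8 spike-in transcripts, the processed signal less its 75th percentile, normexp (offset 50), the deposited values, 2 other filters, no wash batch, slide or replicate number as a block, the compared groups alone, the brightest probe alone and each mouse left out.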

Additional observations from a re-analysis of the deposited data

Results flagged for a closer look

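Of 80 sets of 1 transporter in 1 group, 6 (7.5%) held a mouse that lay far from the others of its group, and chance gives about 1 in 20. *Abcc4* read 7.03 in *Pxr*+/+ control male replicate 5, against 6.20 to 6.38 in the other 5 males, and stayed below every female of its stratum. *Abcg8* read 11.61 in *Pxr*+/+ control male replicate 1 (others 11.93 to 12.06), 13.37 in *Pxr*+/+ ATB female replicate 1 (others 12.60 to 12.88) and 13.36 in *Pxr*-/- ATB female replicate 2 (others 12.74 to 12.91). *Abcb4* read 14.20 in *Pxr*+/+ ATB female replicate 2 (others 14.46 to 14.61), and *Abcb11* 15.43 in *Pxr*-/- control male replicate 4 (others 15.26 to 15.30).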

How the results depend on the processing

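Of 40 member and comparison pairs for PXR loss, 1 was called. It was 3 under quantile normalization, the processed signal and normexp, 2 under spike-in scaling, the deposited values and the slide as a block, and 1 to 2 when single mice were left out (2 without *Pxr*-/- control female replicate 1, 4 or 5). The further calls were all *Abcc3*. For ATB the count of 0 became 1 under quantile normalization, the processed signal, normexp, the deposited values and the compared groups alone, and 0 to 3 when single mice were left out. For sex the count of 24 ran from 20 to 25 (21 to 26 leaving out mice), for differences between effects it was 0 throughout, and for averaged effects the 10 calls ran from 8 to 11 (10 to 11). Of 43 calls of single probes, 13, 13 and 14 were lost under quantile normalization, the processed signal and normexp, 7 with the deposited values, and 0 turned direction in any alternative. The correlation of *Abcc3* with *Abcc4* gave r = 0.31 (permutation p = 0.0538) and rho = 0.31 (p = 0.0492) without the 2 farthest mice, and its r was 0.072, 0.0585, 0.0627 and 0.0807 under quantile normalization, the processed signal, normexp and the deposited values.

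Replicate numbers did not pair the mice (median correlation of deviations -0.051 over 161 pairs with the same number, range -0.396 to 0.548). With the replicate number as a block, calls were 2 for PXR loss, 0 for ATB, 24 for sex, 0 for differences and 10 for averaged effects, and each of the 43 single calls was kept.

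Precision was limited by 5 or 6 mice a group, from 2 cages whose members are not given, and by 1 probe for most members.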
